A study of Saccharomyces cerevisiae with 9 samples.

Results

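The leucine and serine tRNAs of budding yeast were followed through 7 microarray probes, Leu1y, Leu2y, Leu3y, Leu4y, Ser1y, Ser2y and Ser3y, out of the 64 tRNA probes read on each of 9 arrays. They were chosen by name as all probes that begin with Leu or Ser, go on with a number and end in y. The human standard Ser3h and the probes with the prefix m, whose meaning the files do not give, were left out. The averages of each amino acid used 6 of them, and Leu4y, which the rule found in the files, was described with them but kept out of the averages.

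tRNAs carry amino acids to the ribosome, and each amino acid is attached to the 3′ end of its own set of tRNAs, the isoacceptors, by an aminoacyl-tRNA synthetase. A tRNA that bears its amino acid is called charged. Leucine and serine tRNAs of the yeast cytoplasm form class II, in which the stretch between the anticodon stem and the T stem, the variable region, is long enough to fold into an arm of its own. Seryl-tRNA synthetase recognizes its tRNAs largely through this arm. The study asked whether Not1 depletion alters metabolism in a way that shows in the charging of serine tRNAs, after it had looked at ribosomes on serine codons. Leucine, the other amino acid with class II tRNAs, gives a set to read beside serine.

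To see what the probes can bind, the tRNA genes were read from RefSeq's R64 assembly. It lists 21 nuclear leucine tRNA genes on 10 chromosomes and 17 nuclear serine tRNA genes on 14 chromosomes, of 275 nuclear tRNA genes, with 2 further genes marked as of undetermined specificity among those given as serine. The leucine genes encode 4 mature sequences, one for each of 4 anticodons. The serine genes encode 5 mature sequences for 4 anticodons. The variable region was 13 to 15 bases in leucine tRNAs and 14 to 15 in serine tRNAs, against 4 to 5 in the 235 nuclear genes of the 18 other amino acid names, so that the label of a long variable arm holds for the annotated genes. The files do not pair the probe names with anticodons or genes, and no sequence below is assigned to a probe.

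The mature sequence of each anticodon is shown because the probes are meant to tell these tRNAs apart. It is printed 5′ to 3′ as DNA on the gene's own strand, without the intron, the added CCA end or base modifications. Capitals mark the anticodon and, after it, the variable region. In a family with several genes the sequence is the one that most genes encode.
tRNA-Leu(CAA): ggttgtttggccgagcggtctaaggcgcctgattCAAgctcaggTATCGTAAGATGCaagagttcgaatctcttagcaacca
tRNA-Leu(UAA): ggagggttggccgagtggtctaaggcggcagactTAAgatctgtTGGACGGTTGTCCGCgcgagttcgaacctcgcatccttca
tRNA-Leu(UAG): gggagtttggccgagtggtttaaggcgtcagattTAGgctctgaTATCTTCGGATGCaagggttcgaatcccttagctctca
tRNA-Leu(GAG): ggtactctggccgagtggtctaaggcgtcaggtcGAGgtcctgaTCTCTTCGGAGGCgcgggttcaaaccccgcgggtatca
tRNA-Ser(AGA): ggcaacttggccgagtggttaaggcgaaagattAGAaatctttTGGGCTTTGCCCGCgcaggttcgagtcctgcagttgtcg
tRNA-Ser(UGA): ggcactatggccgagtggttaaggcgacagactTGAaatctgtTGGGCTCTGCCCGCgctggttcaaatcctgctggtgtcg
tRNA-Ser(CGA): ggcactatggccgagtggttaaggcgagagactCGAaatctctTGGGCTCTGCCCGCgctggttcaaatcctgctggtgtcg
tRNA-Ser(GCU): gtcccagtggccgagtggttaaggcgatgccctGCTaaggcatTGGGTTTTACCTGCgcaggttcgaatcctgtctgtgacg

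tRNA-Leu(CAA) is encoded by 10 genes, among them SUP56 at chrI:181141-181254 on the plus strand, each with an intron of 32 to 33 bases. tRNA-Leu(UAA) has 7 genes without an intron, such as YNCB0001W at chrII:9583-9666 (plus strand). tRNA-Leu(UAG) has 3 genes with an intron of 19 bases, such as YNCJ0029W at chrX:617919-618019 (plus strand), and tRNA-Leu(GAG) has 1, YNCG0028W at chrVII:700675-700756 (plus strand). Among serine tRNAs, the sequence shown for the AGA anticodon comes from 10 genes, such as YNCA0006C at chrI:182522-182603 (minus strand), and 1 further gene differs from it. tRNA-Ser(UGA) has 3 genes, such as SUP19 at chrV:288443-288524 (minus strand). tRNA-Ser(GCU) has 2 with an intron of 19 bases, such as YNCF0009C at chrVI:191513-191613 (minus strand). tRNA-Ser(CGA) has 1, the essential gene SUP61 at chrIII:227942-228042 (plus strand), also with an intron of 19 bases. All of these are tRNA genes in the annotation and code for no protein.

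The serine sequences were closer to one another than the leucine sequences at their nearest pair. Counted as single-base changes, insertions or deletions, tRNA-Ser(UGA) and tRNA-Ser(CGA) were 3 apart and had the same variable region, while the 4 leucine sequences were 18 to 30 apart. The serine sequence for the GCU anticodon was 23 to 25 from the other serine sequences, which is within the range of the leucine sequences. Leucine and serine sequences were 24 to 36 apart. How far a probe for one of these tRNAs also binds another was not tested.

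The arrays compared Not1 depleted cells with wild-type cells. Both strains carry the plant F-box protein OsTIR1 behind the ADH1 promoter (ura3-1::pADH1-OsTIR1-URA3) with a mutant leu2 allele, trp1-1, can1-100 and, per the sample records, HIS3,15 and ADE2. The Not1 strain carries in addition not1::NOT1-AID-Myc6-NATMX4, an auxin-inducible degron on Not1, the scaffold of the Ccr4-Not complex. LEU2 codes for an enzyme of leucine synthesis, so both strains take up leucine from their rich medium, YPD. In the sample records both strains received 1 mM auxin over 15 min, whereas the methods give ethanol for the control. The records also give the degron strain as MY13523 and both strains as MATa, where the strain list gives MY13517 with a 9Myc-AID tag, and MATα, his3 and ade2 for both.

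There were 3 charging arrays per strain and 3 abundance arrays, each from independently grown cells. On a charging array, Cy3 labelled the tRNA that survived periodate because its 3′ end was protected by an amino acid, and an Atto dye labelled the total tRNA of the same sample. The ratio of Cy3 to Atto, divided by that of the standards, synthetic tRNAs added to each sample, is called the charged fraction here and is given as a percent of the standards' ratio, which can exceed 100%. On an abundance array, Cy3 labelled the tRNA of Not1 depleted cells and Atto that of the wild-type, without a dye swap. Per the methods, the tRNA of these arrays was freed of its amino acids. Each value of a leucine or serine probe rests on 9 to 18 lit spots, whose log2 ratios had an SD of 0.07 to 0.74 within an array (median 0.16).

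The probe names of block rows 5 to 8 stand 1 row above their spots in the files and were moved. For the 5 members with spots at more than one place, Leu3y, Leu4y and the serine probes, the log2 ratios of the places then differed by 0.0038 to 0.25 on single charging arrays. With the names as deposited, the gap was 0.62 to 1.55 for Leu3y and Leu4y, 0.44 to 1.41 for Ser2y and Ser3y and 0.0071 to 0.25 for Ser1y. Leu1y and Leu2y lie outside these rows.

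In the charged fraction, the leucine probes lay close together, whereas the serine probes were spread out and Ser1y was the lowest of the 7 on all 6 charging arrays. No leucine or serine probe passed the test between the strains. Leu1y was at 183%, 75.6% and 115% in replicates 1, 2 and 3 upon Not1 depletion, against 106%, 132% and 47.1% in the wild-type. Leu2y was at 143%, 66.3% and 91.6% against 133%, 147% and 62.0%. For both probes the 2 strains overlapped.

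Leu3y was at 125%, 62.4% and 83.7% upon Not1 depletion, against 118%, 117% and 55.7% in the wild-type. Leu4y was at 133%, 70.5% and 90.2% against 127%, 116% and 51.0%. For each leucine probe, replicate 1 was the highest array of Not1 depleted cells, and replicate 3 was the lowest of the wild-type. Within Not1 depleted cells the arrays stood in the same order for all leucine probes, with replicate 2 the lowest. The median of all probes was likewise highest on replicate 1 and lowest on replicate 2 of Not1 depleted cells, at 102%, 64.9% and 77.5%. In the wild-type it was at 107%, 99.1% and 51.8%, lowest on replicate 3, so these positions are not particular to leucine.

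Ser1y was at 69.7%, 29.6% and 37.6% upon Not1 depletion, against 72.8%, 52.9% and 22.0% in the wild-type. The values of Ser2y were 162%, 55.0% and 83.05% against 154%, 109% and 41.9%. Ser3y was at 74.1%, 61.0% and 68.6% against 117%, 90.6% and 42.8%, and so had the narrowest spread of the members in Not1 depleted cells (67.9% ± 6.56, SD, n = 3, against 83.6% ± 37.8 in the wild-type). For the 3 serine probes, too, the strains overlapped, as they did for every one of the 64 probes. Wild-type replicate 3 was their lowest array of all, as it was for the median of all probes.

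**Figure D1:**
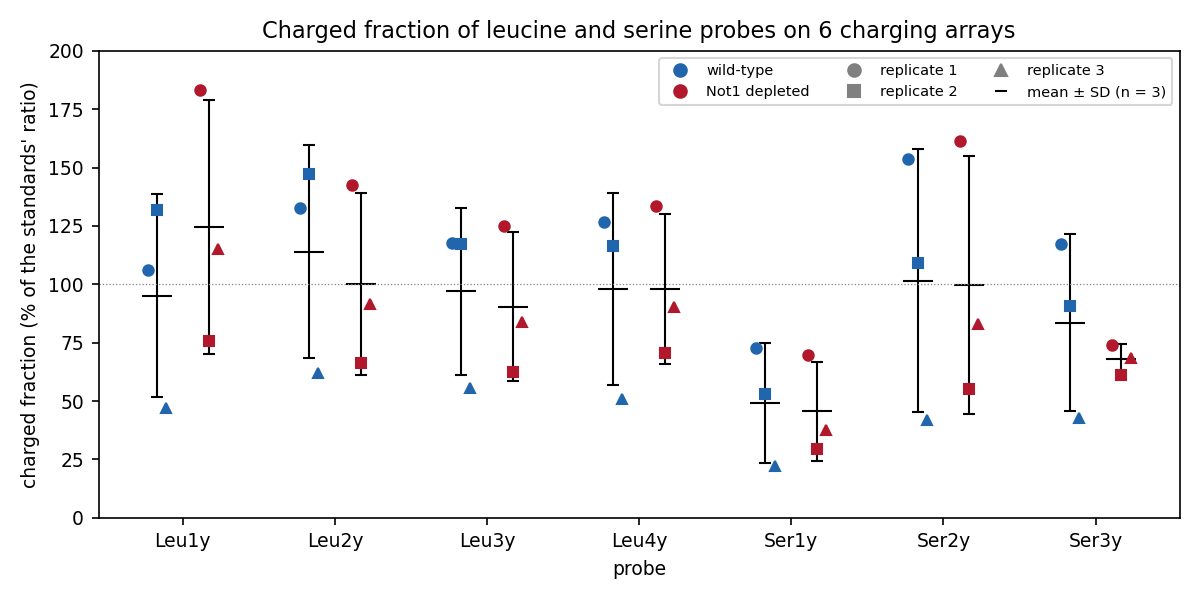
Charged fraction, in percent of the standards' ratio, of the leucine and serine probes on the charging arrays (blue, wild-type, red, Not1 depleted, symbols give the replicate, bars the mean ± SD, n = 3). The strains overlap for every probe, and Ser1y lies at 22.0% to 72.8%, below each of the other 6 probes on the same array.

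Between strains, the log2 change in charged fraction (Not1 depleted over wild-type) was 0.42 for Leu1y, -0.16 for Leu2y, -0.08 for Leu3y and 0.06 for Leu4y. It was -0.04 for Ser1y, 0.02 for Ser2y and -0.18 for Ser3y. The standard error, pooled by limma over the probes, was 0.47 for each. None of the 7 passed in limma with Benjamini-Hochberg adjustment over all 64 probes (adjusted p = 0.994 for each). The share called over all probes was 0% as well, with 0 probes at an unadjusted p under 0.05. The exact permutation p of single members was 0.6 to 1, where 3 arrays against 3 cannot give one under 0.1. The median change was -0.04 over the 7 members and 0.02 over the 33 other probes without the prefix m.

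These signs are not stable. Leu1y turned to -0.02 without wild-type charging replicate 3, and Ser2y to -0.52. Ser1y turned to 0.32 without wild-type replicate 1, as did Leu3y (0.10) and Ser3y (0.12).

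Compared within each array, the mean of the leucine probes was higher than the mean of the serine probes, although no leucine probe was above Ser2y on all 6 arrays. The mean log2 ratio of Leu1y to Leu3y exceeded that of Ser1y to Ser3y by 0.66, 0.55 and 0.68 in replicates 1 to 3 of Not1 depleted cells and by 0.11, 0.71 and 0.68 in the wild-type. All 6 values lie above 0, and wild-type replicate 1 stands below the other 5. The mean over the 6 arrays was 0.56 ± 0.23 (SD), or 1.48-fold, with 0.63 ± 0.07 (SD, n = 3) upon Not1 depletion against 0.50 ± 0.34 in wild-type cells. With Leu4y included the mean was 0.55. Scaling by the standards cancels in this difference, and a difference between probes includes that of the probes themselves.

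Most of this difference came from Ser1y. The leucine mean exceeded Ser1y by 0.70 to 1.35 on the 6 arrays, Ser3y by 0.01 to 1.00 and Ser2y by -0.38 to 0.38. Ser2y was near the leucine mean on average, above it on both replicates numbered 1 and below it on the other 4 arrays. Ser2y exceeded Ser1y by a near-constant 0.89 to 1.21 on the log2 scale (mean 1.05 ± 0.12, SD over 6 arrays, or 2.07-fold). Ser3y exceeded Ser1y by 0.09 on replicate 1 of Not1 depleted cells and by 0.69 to 1.04 on the other arrays.

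In the order of their mean log2 ratio over the 6 arrays, the members were Leu1y (0.01), Leu2y (0.01), Leu4y (-0.11), Ser2y (-0.16), Leu3y (-0.17), Ser3y (-0.47) and Ser1y (-1.21). Of the 21 pairs among them, 10 kept one order on all 6 arrays, and of the 15 pairs without Leu4y, 8 did. Over all 64 probes, 55.2% of 2016 pairs kept one order, so the members' share is near the background. The pairs in one order were Ser1y below each of the other 6, Ser3y below Leu2y, Leu3y and Leu4y, and Leu3y below Leu2y. For each of them the exact sign-flip test gave a two-sided p of 0.03125, the smallest that 6 arrays allow, and 0.0656 after Benjamini-Hochberg adjustment over the 21 pairs. Any pair in one order on all 6 arrays must give this p, so it adds nothing to the count of such pairs. Among neighbours in the order, Leu1y and Leu2y (p = 1), Leu2y and Leu4y (p = 0.125), Leu4y and Ser2y (p = 0.625) and Ser2y and Leu3y (p = 1) did not differ beyond their spread in the same exact test.

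The gap between the highest and the lowest leucine probe was 0.28 to 0.55 on the log2 scale over the 6 charging arrays (median 0.37), and that between the serine probes was 0.96 to 1.21 (median 1.06). The ranges do not overlap, although there are 4 leucine probes and 3 serine probes. Among the other amino acids with at least 3 probes, the gap was 0.14 to 0.50 for glycine (median 0.25), 0.33 to 0.54 for threonine (0.43), 0.39 to 1.19 for valine (0.83) and 0.60 to 1.71 for arginine (0.72). Valine and arginine thus overlap with serine.

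Within all 64 probes, Ser1y ranked 44th to 62nd from the highest on single charging arrays and lay 0.55 to 1.23 below the array's median on the log2 scale. Of the other 63 probes, 41 were higher than Ser1y on all 6 arrays and 2 were lower on all 6. The leucine probes ranked 9th to 38th and stayed between 0.14 below and 0.85 above the median. Ser2y moved most in rank, from 6th on wild-type replicate 1 to 45th on wild-type replicate 3, while Ser3y ranked 24th to 46th.

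**Figure D2:**
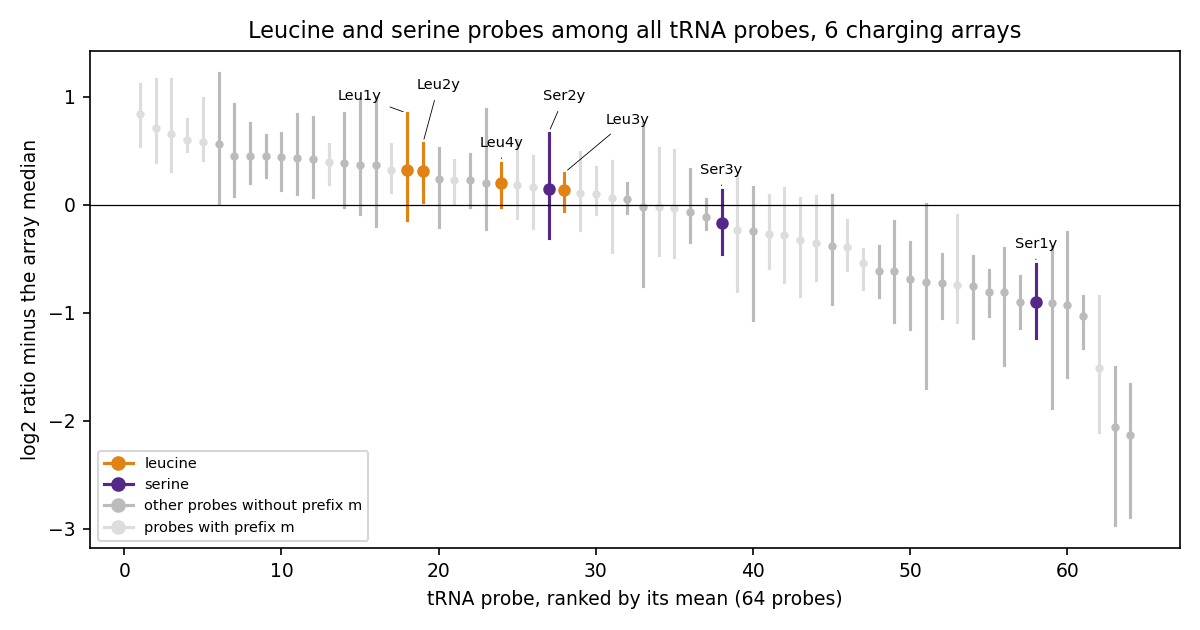
The log2 ratio of each of the 64 tRNA probes minus the median of all probes on the same array, over the 6 charging arrays (point, mean, line, lowest to highest array), in order of the mean. The 4 leucine probes (orange) and Ser2y lie above 0 on average, Ser3y at -0.16, and Ser1y at -0.90.

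On the abundance arrays, the leucine and serine probes gave a lower signal for Not1 depleted cells than for the wild-type on replicates 1 and 3, while on replicate 2 they lay on both sides of 0, and none passed the test. The log2 ratios, depleted over wild-type, on replicates 1, 2 and 3 were -2.24, 0.15 and -1.43 for Leu1y. They were -1.998, 0.20 and -0.93 for Leu2y. For Leu3y, they were -2.21, 0.03 and -1.20. Replicate 2 was the highest array in each case.

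Leu4y was at -2.21, -0.01 and -0.93. Ser1y was at -1.98, -0.02 and -1.17. Ser2y was at -1.69, 0.76 and -1.02 and was the highest of the 7 on replicates 1 and 2. Ser3y was at -2.43, -0.31 and -1.05, with the lowest values on those same replicates. The spread between arrays was thus wider than that between members on any array.

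**Figure D3:**
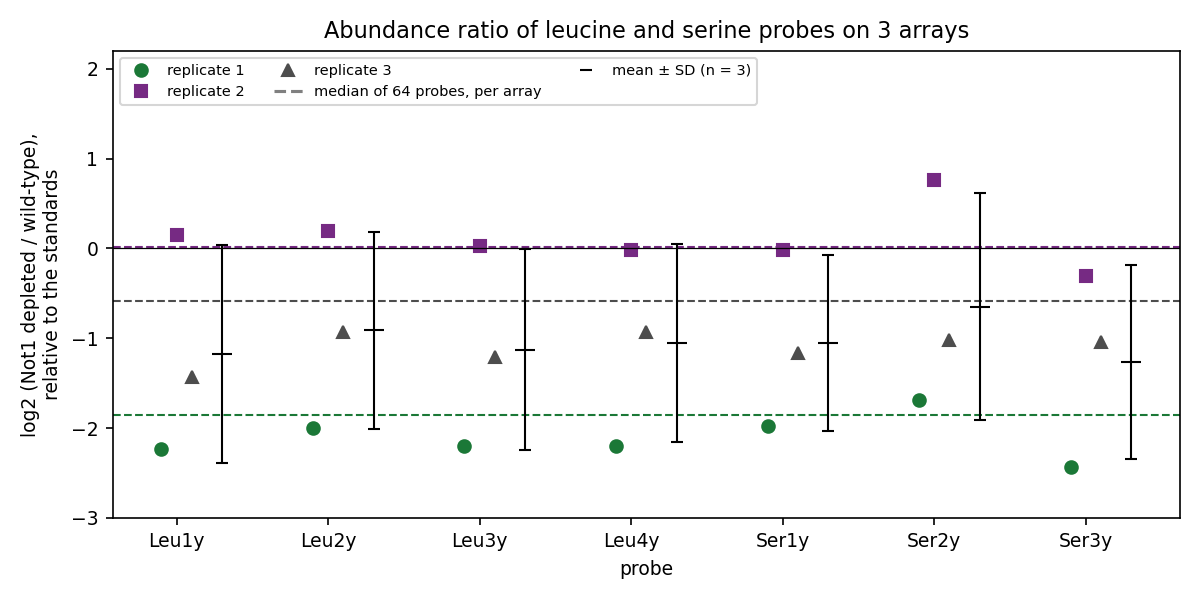
Log2 ratio of tRNA after Not1 depletion over wild-type tRNA, relative to the standards, for the leucine and serine probes on the 3 abundance arrays (symbols and colours give the replicate, black bars the mean ± SD, n = 3, dashed lines the median of 64 probes on each array). Replicate 2 lies between -0.31 and 0.76 for every probe, and replicate 1 between -2.43 and -1.69.

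The mean log2 ratio was -1.17 for Leu1y, -0.91 for Leu2y, -1.13 for Leu3y, -1.05 for Leu4y, -1.05 for Ser1y, -0.65 for Ser2y and -1.26 for Ser3y, with a standard error of 0.58 for each (adjusted p = 0.209 to 0.432, limma). The share called over all 64 probes was 0%. At an unadjusted p under 0.05 there were 13 of 64 probes, Leu1y and Ser3y among them. The standard error was pooled by limma over the probes and is not each probe's own. The probes moved together between arrays, with their median at -1.86, 0.02 and -0.58 on replicates 1 to 3. These limma p-values count that shared shift as separate evidence from each probe. The 3 probes Leu4y, Ser1y and Ser3y were below 0 on all 3 arrays, as were 29.7% of all probes (two-sided p = 0.25 in the exact sign-flip test, which 3 arrays cannot undercut). Among the 33 other probes without the prefix m, 16 were below 0 on all 3 arrays, and among the 24 with it, 0 were. The median was -1.05 over the 7 members and -1.07 over the 33 other probes without the prefix m, of which all 33 had a mean below 0.

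These calls depended on abundance replicate 2. Without it, 23 probes passed in limma (35.9% of 64), all of them lower in Not1 depleted cells, and 5 of the 7 members were among them, with Leu1y at -1.84, Leu3y at -1.71, Leu4y at -1.57, Ser1y at -1.57 and Ser3y at -1.74 (adjusted p = 0.0299 to 0.0385). Of the 33 other probes without the prefix m, 18 passed in this fit, and of the 24 with it, 0 did. That fit holds 2 arrays, whose shifts all probes share, so the 23 calls are not independent results. Without replicate 1 or without replicate 3, 0 probes passed. Without replicate 1 the members were nearer to 0, with Leu1y at -0.64, Leu2y at -0.37, Leu3y at -0.59, Leu4y at -0.47, Ser1y at -0.59, Ser2y at -0.13 and Ser3y at -0.68. With the probe names as deposited, they lay between -0.30 and -0.03. Less tRNA per cell, a different share of tRNA in the total RNA and an effect of the dyes, which were not swapped, cannot be told apart on these arrays. In the Atto signal of the charging arrays, described below, the members' log2 change between the strains was -0.30 to 0.37. It was above 0 for 6 of the 7 members, and none passed there either. The cause of this difference between the kinds of array was not tested.

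Measured against the median of all probes on each array, Ser2y was the only member above it on average, at 0.16 ± 0.59 (SD, n = 3), and Ser3y was lowest at -0.45 ± 0.13. The leucine probes were between -0.36 and -0.10, and Ser1y at -0.24 ± 0.30. The 24 probes with the prefix m pull the median of all probes up. By each probe's mean ratio over the 3 arrays, the median was -0.19 for them, -0.90 for all probes and -1.07 for the 33 other probes without that prefix. A place below the median of all probes is thus common among probes without the prefix.

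The gap between leucine and Ser1y on the charging arrays was not seen on the abundance arrays. There the leucine mean minus Ser1y was -0.17, 0.14 and -0.02, against 0.70 to 1.35 on the charging arrays. For Ser2y the difference was -0.46, -0.63 and -0.17, below 0 on all 3 abundance arrays. For Ser3y it was 0.29, 0.43 and -0.14. Over all 3 serine probes, the leucine mean minus the serine mean was -0.11, -0.02 and -0.11 on the abundance arrays (mean -0.08 ± 0.05, SD, n = 3). Both kinds of array used Cy3 and Atto, but RNA for charging arrays was extracted with acidic phenol and RNA for abundance arrays with TriReagent. The parts of dye, extraction, charging and a difference in abundance between the strains were not tested.

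**Figure D4:**
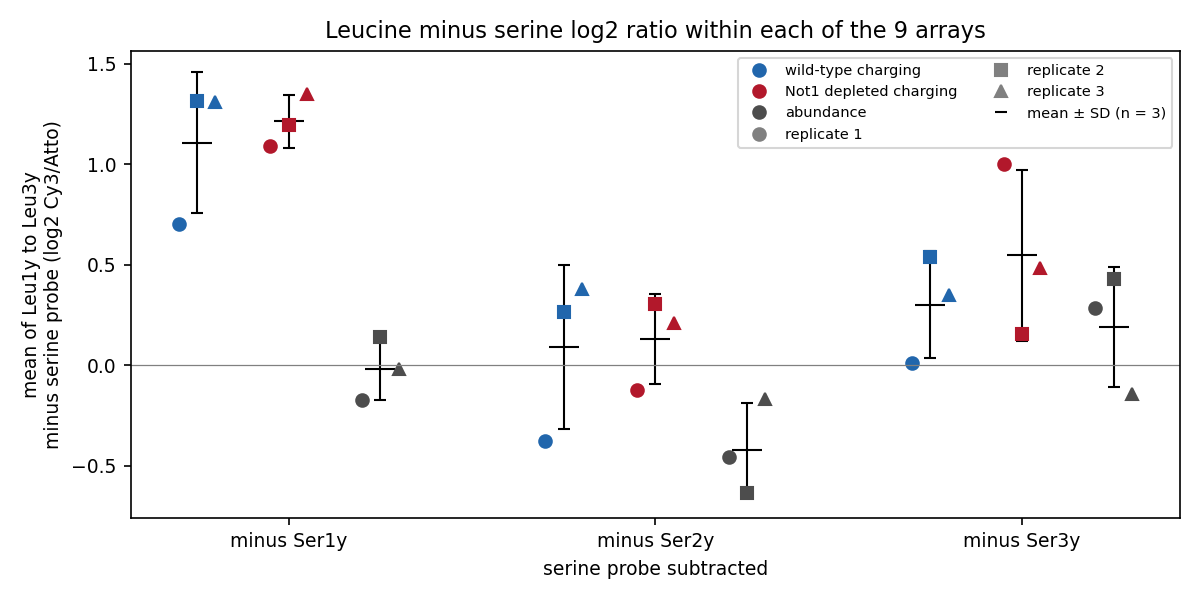
Mean log2 (Cy3/Atto) of Leu1y to Leu3y minus that of each serine probe, within each of the 9 arrays (blue, wild-type charging, red, Not1 depleted charging, grey, abundance, symbols give the replicate, bars the mean ± SD, n = 3). For Ser1y the charging arrays lie at 0.70 to 1.35 and the abundance arrays at -0.17 to 0.14, while for Ser3y the kinds of array overlap.

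The total tRNA signal on the charging arrays, from Atto alone relative to the standards, did not separate the strains for any member. It separated them for 5 of all 64 probes, and these 5 carry the prefix m. On the log2 scale, Leu1y was at 1.93, 2.09 and 1.54 upon Not1 depletion, against 2.31, 0.48 and 2.60 in the wild-type. Leu2y was at 1.47, 1.24 and 1.11 against 1.499, 0.46 and 1.85. Leu3y was at 1.87, 1.72 and 1.23 against 1.57, 0.24 and 1.89. Wild-type replicate 2 was the lowest array for these probes, as it was for the median of all probes, at 1.01. The wild-type values lay on both sides of the others.

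Leu4y was at 1.72, 1.09 and 1.28 in Not1 depleted cells against 1.61, 0.14 and 2.14 in the wild-type. Ser1y was at 2.18, 1.72 and 1.49 against 1.53, 1.09 and 2.03, and Ser2y at 2.42, 2.41 and 2.09 against 1.81, 1.47 and 2.67. For these members as well, wild-type replicate 2 was the lowest array. Ser3y was at 2.41, 3.18 and 3.50 against 3.07, 2.97 and 3.93, and here replicate 1 of Not1 depleted cells was lowest.

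**Figure D5:**
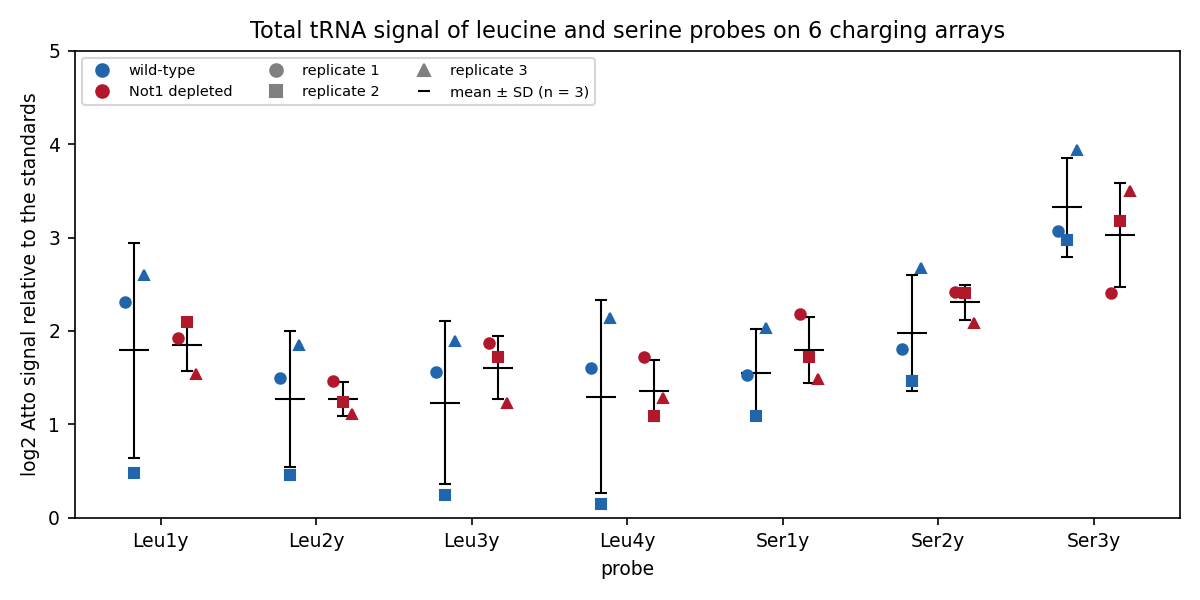
Log2 Atto signal, relative to the standards, of the leucine and serine probes on the charging arrays (blue, wild-type, red, Not1 depleted, symbols give the replicate, bars the mean ± SD, n = 3). The strains overlap for every probe, and wild-type replicate 2 is low for the leucine probes, at 0.14 to 0.48.

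The log2 change in total signal (Not1 depleted minus wild-type) was 0.06 for Leu1y, 0.0021 for Leu2y, 0.37 for Leu3y, 0.06 for Leu4y, 0.25 for Ser1y, 0.32 for Ser2y and -0.30 for Ser3y, with standard errors of 0.60 to 0.61 (adjusted p = 0.961 to 0.997, limma). The share called was 0% over all probes, with 1 of 64 at an unadjusted p under 0.05, which is not a member. The leucine changes less the serine changes came to 0.05 on average. This sign turned without wild-type charging replicate 2 (-0.24) and without replicate 1 of Not1 depleted cells (-0.05). With the standards EcTyr2 and Ser3h alone, both of which have a long variable arm, all members but Ser3y turned too, to between -0.63 and -0.26. Brightness also depends on the probe, so these levels do not rank the tRNAs by amount.

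Between the kinds of array, the leucine and serine means moved apart in Atto. The leucine mean less the serine mean in log2 Atto was -0.58, -0.75 and -1.07 in Not1 depleted cells and -0.34, -1.45 and -0.76 in the wild-type. On the abundance arrays, where Atto marks the wild-type, it was -2.63, -2.66 and -1.82. These values lie below those of the charging arrays. How many other sets of probes shift between the kinds of array was not counted, so this is not shown to be particular to leucine and serine. The difference within an array is one between probes and does not rank the tRNAs, and on the charging arrays Ser1y was dimmer than Leu1y on 4 of the 6. Extraction differed between these kinds of array, as above, and the abundance arrays were mostly brighter. Their median Atto foreground was 536 to 1822, against 251 to 608 on the charging arrays. The part of either in this difference was not tested.

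The probes named for leucine and serine with the prefix m, mLeu1y, mSer1y and mSer2y, did not pass the test between strains either. Their log2 changes in charged fraction were 0.32, -0.22 and 0.03 (adjusted p = 0.994, limma). On average over the abundance arrays they were at -0.41, -0.19 and -0.43. Their total signal was higher upon Not1 depletion by 0.71, 0.68 and 0.37 on the log2 scale (adjusted p = 0.905 to 0.961, limma). For mSer1y the strains did not overlap in total signal, as for 5 of the 24 probes with the prefix m and 0 of the 7 members, and all 24 had a change above 0. In charged fraction, mLeu1y was at 228%, 95.8% and 131% upon Not1 depletion, against 133%, 162% and 69.1% in the wild-type, higher than Leu1y to Leu4y on 5 of the 6 arrays. mSer1y was at 69.7%, 53.3% and 51.0% against 93.4%, 67.5% and 47.0%. mSer2y was at 108%, 44.4% and 54.5% against 101%, 76.0% and 32.0%, higher than Ser1y on all 6 charging arrays.

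The likeness of patterns was measured by Pearson's r of the log2 ratio over the 9 arrays after each array's median was subtracted. This r pools the charging arrays, whose ratio is the charged fraction, with the abundance arrays, whose ratio compares the strains. It describes arrays that share their labels and standards and carries no p. Among probes that are not members, Leu1y was most like Ala2y (r = 0.97) and Gly1y (0.96). Leu2y was most like Gly3y (0.98) and Trp1y (0.97), Leu3y most like Phe1y (0.98) and Gly3y (0.98), and Leu4y most like Phe1y (0.96) and Ala2y (0.96). By this pooled r, the leucine probes thus had close neighbours among several amino acids. Their means lay above the median of all probes on the charging arrays (0.14 to 0.32) and below it on the abundance arrays (-0.36 to -0.10). The part of the kind of array in these values of r, and in those of the serine probes below, was not tested.

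The serine probes were less alike. Ser1y was most like mSer2y (r = 0.95) and then Thr2y (0.81), Ser2y most like mAsp1y (0.82) and Arg4y (0.70), and Ser3y most like Arg3y (0.50) and Phe1y (0.49). Among the members, the closest to Ser1y was Ser2y, at r = 0.62, while Leu2y and Leu3y reached 0.97.

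The scale of all percent values rests on 4 standards, added at 4 pmol each to 2 µg of total RNA, of which E. coli tRNATyr2 and human tRNASer3 also have a long variable arm and E. coli tRNALys2 and human tRNAHis1 do not. The long-arm standards stood at opposite ends. On the charging arrays EcTyr2 was the highest standard, at 154% to 457% of the array's scale, and Ser3h the lowest, at 28.9% to 68.7%. EcLys2 was at 144% to 233% and His1h at 94.1% to 163%. A level such as 45.6% ± 21.2 (SD, n = 3) for Ser1y upon Not1 depletion and 49.3% ± 25.6 for wild-type cells is therefore a level relative to this mixture.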

How the data were processed

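Members and gene lists were chosen with earlier results of these data known. The deposited tables hold foreground and background fluorescence intensity of each spot in Cy3 and Atto, and the percent of pixels above background, as the authors' image software gave them. The authors' own normalization to spike-in standards is not in these values, and all log2 values were computed from the deposited intensities. Each array had 12 blocks of 11 rows and 11 columns. Names in rows 6 to 8 were taken from the row above, and row 5 was not used. A spelling variant of EcTyr2 was read as that standard. Background was corrected with normexp (offset 50) in limma 3.58.1 under R 4.3.3. Spots with under 50% of pixels above background plus 2 SD in both channels were left out. Log2 Cy3/Atto and log2 Atto were scaled by the median of the 68 to 92 lit spots of the 4 standards and averaged per probe. The 64 probes were fitted with lmFit and eBayes, with a threshold of 0.05 on the Benjamini-Hochberg adjusted p. Single values were compared with exact permutation or sign-flip tests, two-sided. The fits were tested on simulated data with independent probes, a small spread and large changes, so that test does not show their power on these arrays. No array shared more than 4.48% of its spot values with another. Precision is limited by the number of arrays. The probes named are the members, mLeu1y, mSer1y and mSer2y, the standards and, for each member, the 2 other probes most like it. Sequences were read from RefSeq's R64 assembly. The anticodon arm was found as a stem of 5 pairs around a loop of 7 bases, and the variable region as the bases between it and the T arm. Alternatives were other background corrections, standards and scaling, spot and probe filters, the deposited names, the replicate number as a block, and each array left out. Sequences and plots were made with Python 3.11.15 (pandas 2.3.3, matplotlib 3.10.9).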

Additional observations from a re-analysis of the deposited data

How the results depend on the processing

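With plain background subtraction, 4 probes passed in charged fraction, all with the prefix m, against 0 in the reported setting. No other alternative put a probe past the threshold except leaving out abundance replicate 2, and the cause of each change was not tested. Leaving out each array gave 0 to 23 calls in abundance, 0 to 0 in charged fraction and in total signal, and 8 to 10 of 15 pairs in one order. The leucine minus serine difference then ranged from 0.54 to 0.66 in charged fraction, -0.11 to -0.066 in abundance and -0.24 to 0.31 in total signal change. In abundance, this difference of -0.08 moved to -0.16 with plain subtraction, -0.012 with no background correction, -0.15 with the median of repeated spots and -0.14 with the deposited names. In total signal change it turned to -0.15 with the median of repeated spots. In charged fraction it kept its sign and moved by less than 1 SD throughout.

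Single members changed as follows, none past the threshold unless abundance replicate 2 was left out. In charged fraction, signs turned with plain subtraction (Leu1y -0.0019, Leu4y -0.35, Ser2y -0.42), no background correction (Leu4y -0.027, Ser2y -0.086), the deposited names (Leu4y -0.012, Ser3y 0.17), Ser3h left out (Leu3y 0.022, Ser1y 0.057) and the standards without a long arm alone (Ser1y 0.012). With plain subtraction the other members also moved down, to -0.57 for Leu2y, -0.54 for Leu3y, -0.48 for Ser1y and -0.61 for Ser3y, while the median of all probes was -0.46. Leaving out each array gave -0.019 to 0.74 for Leu1y, -0.55 to 0.10 for Leu2y, -0.44 to 0.16 for Leu3y, -0.36 to 0.30 for Leu4y, -0.54 to 0.32 for Ser1y, -0.52 to 0.42 for Ser2y and -0.61 to 0.12 for Ser3y. In abundance, scaling to the median of all probes put Ser2y at 0.16. The deposited names gave -0.30, -0.037, -0.30 and -0.27 for Leu1y to Leu4y and -0.11, -0.097 and -0.027 for Ser1y to Ser3y. Leaving out each array gave -1.84 to -0.64 for Leu1y, -1.46 to -0.37 for Leu2y, -1.71 to -0.59 for Leu3y, -1.57 to -0.47 for Leu4y, -1.57 to -0.59 for Ser1y, -1.35 to -0.13 for Ser2y and -1.74 to -0.68 for Ser3y.

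In total signal, empty spots kept gave -0.11, -0.33, -0.041 and -0.18 for Leu1y to Leu4y and -0.053 for Ser1y. Scaling to the median of all probes gave -0.050, -0.11 and -0.046 for Leu1y, Leu2y and Leu4y. The long-arm standards alone gave -0.58, -0.63, -0.26 and -0.57 for Leu1y to Leu4y, -0.39 for Ser1y and -0.31 for Ser2y. The standards without a long arm alone gave -0.25, -0.31, -0.25 and -0.067 for Leu1y, Leu2y, Leu4y and Ser1y, and Ser3h left out gave -0.10, -0.16 and -0.10 for Leu1y, Leu2y and Leu4y. The deposited names gave -0.017 for Ser1y and -0.26 for Ser2y, and the median of repeated spots -0.040 for Leu1y and 0.036 for Ser3y. Leaving out each array gave -0.60 to 0.46 for Leu1y, -0.40 to 0.29 for Leu2y, -0.12 to 0.70 for Leu3y, -0.51 to 0.49 for Leu4y and -0.53 to 0.014 for Ser3y.

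Deviations of same-numbered charging arrays correlated at 0.09, -0.61 and -0.06. Across numbers they ran from -0.70 (Not1 depleted 1 with wild-type 3) to 0.78 (Not1 depleted 2 with wild-type 3). With 3 arrays per strain, these values cannot settle whether the arrays were paired. A fit with the replicate number as a block called 0 probes in charged fraction and 0 in total signal. The slide or scan as a block was not run, because the files name none. The inclusion of Leu4y was chosen after the files were examined and gave 0.55 for the leucine minus serine charged fraction, -0.08 for abundance and 10 of 21 pairs in one order.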
